A study of Homo sapiens with 4 samples.

Results

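The keratin gene clusters were examined in MCF10A, a non-tumour human breast epithelial cell line, as intervals of hg19. The type I window ran on chromosome 17 from 38800000 to 39800000. The type II window, set to include KRT18, ran on chromosome 12 from 52560000 to 53350000. Every region of the 3 deposited lists that shared at least 1 bp with a window was a member. This gave 99 regions of 128734 in all: 29 of 11604 for 53BP1, 45 of 62530 for the form of RNA polymerase II (Pol II) with phosphate on serine 5 of its tail (S5p), and 25 of 54600 for the serine 2 form (S2p).

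The cells grew under standard conditions, with no treatment or genotype contrast, and each of the 4 samples (3 ChIPs and an input) had 1 library. So no replicate error can be given for any value. The input was not analysed here. Each region carries the authors' fold enrichment over background, and because read depth was unknown, a fold is described by its percentile within its own list.

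Keratins are the intermediate filament proteins of epithelial cells. Each filament is built from pairs of a type I and a type II keratin, so both clusters are used together in a cell. Basal breast epithelium, which MCF10A resembles, is known for KRT5 (type II) with KRT14 (type I), and luminal epithelium for KRT8 (type II) with KRT18, a type I gene that lies beside the type II genes. KRT6A, KRT16 and KRT17 are keratins of wounded and stressed epithelium, KRT1 and KRT10 of the upper epidermis. The type I cluster also holds the keratin-associated protein genes of hair. S5p marks Pol II early in transcription, S2p marks elongating Pol II, and 53BP1 is a chromatin reader that acts in the repair of DNA breaks.

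A RefSeq gene table of GRCh38 listed 28 protein-coding keratin genes and 34 keratin-associated protein genes on chromosome 17, and 27 protein-coding keratin genes on chromosome 12. Its positions belong to another build and were not carried over. Regions are therefore given by hg19 position and not by gene, and the cell type was not checked by marker genes. A keratin region here means any region in a window, and regions at genes other than keratins were not counted apart.

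Regions of both clusters were confined to a few loci separated by long stretches with none. When regions of any list lying within 5 kb of each other were joined, the type II window held 16 loci and the type I window 12. Stretches free of regions made up 85.0% of the type II window and 94.1% of the type I window. This share was not counted outside the windows, so it is not shown to be particular to them. The longest, on chromosome 17 from 38995947 to 39536523, was 541 kb, or 54.1% of the type I window. Next in type I came 167 kb from 38805174 to 38972042. In type II the longest was 294 kb, from 52919439 to 53213619 on chromosome 12, and the next was 130 kb, from 52699730 to 52829788. No region in these stretches means that none was detected at this unknown depth. At the lower edge of the type I window, an S5p region (38799586 to 38801900, fold 2.82) and an S2p region (38797042 to 38801921, fold 4.87) crossed it and were counted. The nearest 53BP1 regions left outside were at 39834510 (fold 15.4) above type I, and at 52540970 (4.44) below and 53399720 (6.93) above type II.

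**Figure D1:**
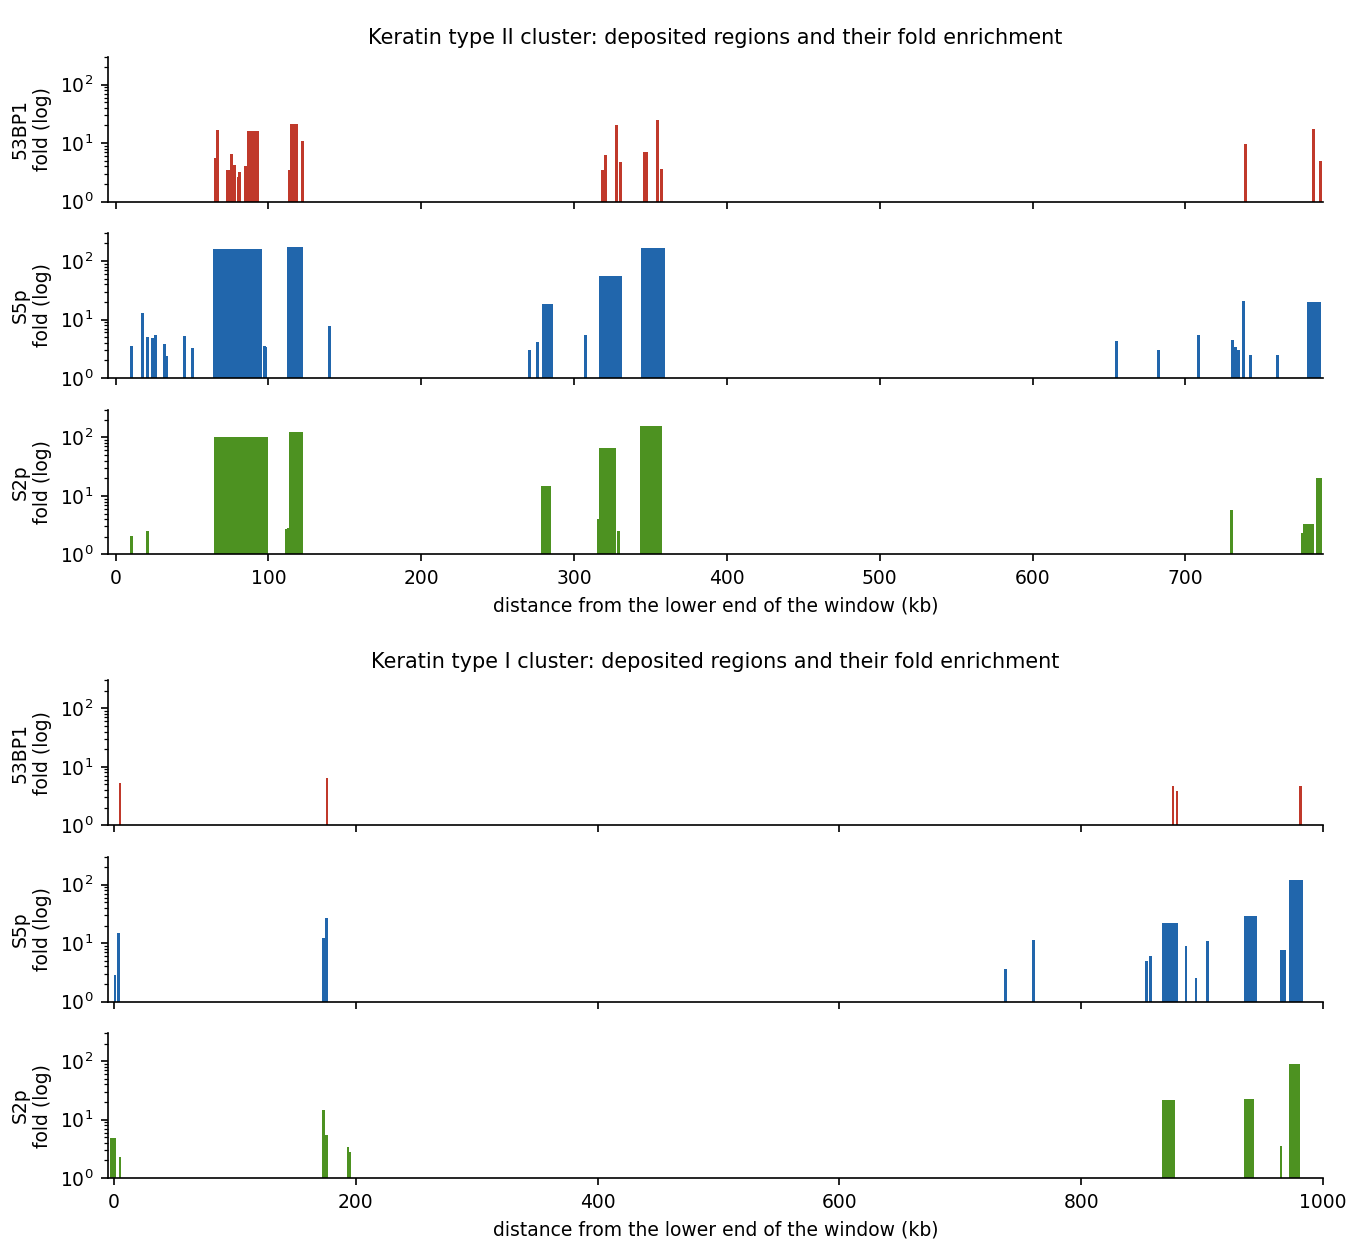
Deposited regions of 53BP1, S5p and S2p along each keratin window (x axis, kb from the window's lower end; each bar is 1 region, drawn at least 2 kb wide, and its height is the fold enrichment on a log axis from 1). Tall Pol II bars stand at 4 places in the type II window and at the upper end of the type I window, and 53BP1 bars above a fold of 10 occur in type II alone.

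The clusters differed in how much 53BP1 they held. The type II window had 24 regions of 53BP1, 30 of S5p and 15 of S2p, and these covered 3.61%, 13.9% and 11.9% of its length. The type I window, although longer, had 5, 15 and 10, covering 0.203%, 5.53% and 3.92%. Between the windows, the covered share was thus higher in type II for all 3 lists, and most of all for 53BP1.

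Against the 1 Mb on each side, type I was the poorer part of its neighbourhood in every list. Its flanks held 31 and 29 regions of 53BP1, and S5p covered 29.0% and 31.7% of them. Type II stood differently: 53BP1 covered 0.545% and 1.47% of its flanks, less than the 3.61% in the window. By count the difference was smaller. The type II window held 24 regions of 53BP1 (30.4 per Mb), and its flanks of 1 Mb held 10 and 24. Regions of 7664 and 5196 bp alone made up much of the 28.5 kb of 53BP1 in the type II window. S5p covered 6.79% and 22.4% of the type II flanks, so the window's 13.9% lay between them. S2p followed the same order, with 9.09% and 24.5% in the flanks. With 1 library per list these are descriptions and no test was made.

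**Figure D2:**
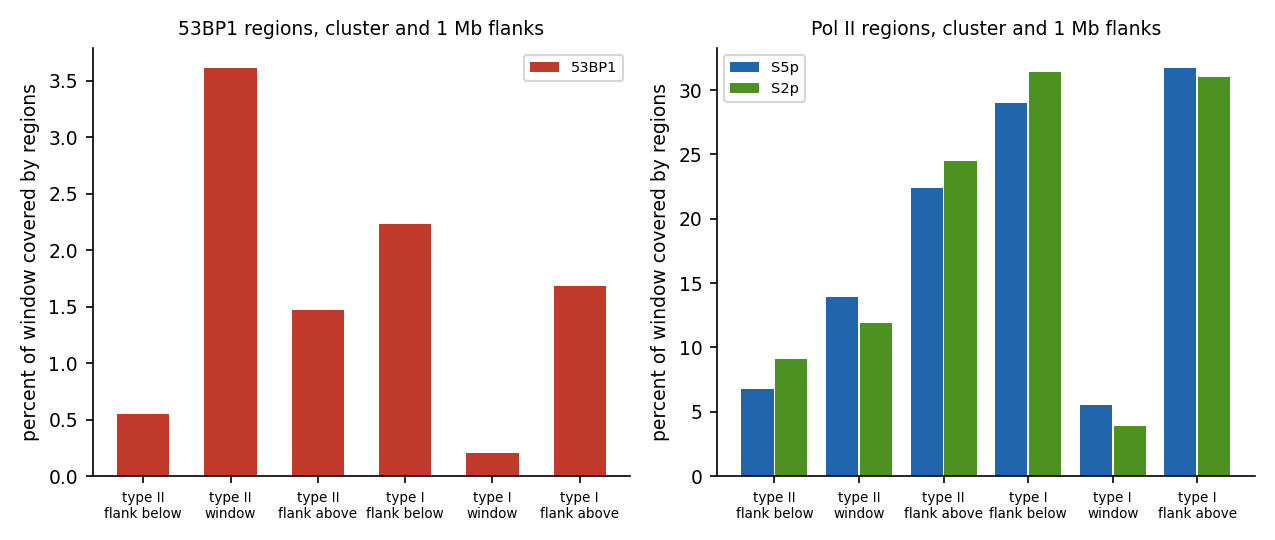
Percent of each window and of the 1 Mb below and above it that lay in regions of 53BP1 (left, y axis to under 4%) or of S5p and S2p (right, a taller y axis). 53BP1 coverage was highest in the type II window, at 3.61%, and lowest in the type I window, at 0.203%.

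Pol II was as strong as almost anywhere in the lists at a few keratin loci. On chromosome 12, 3 S5p regions lay at the 99.9th percentile: 52671847 to 52682795 with a fold of 172, 52903580 to 52919438 with 170.0, and 52623815 to 52655548 with 158. A further one, at 52876440 to 52891297, had a fold of 55.0 (97.8th percentile), and next came 53296842 to 53299203 with 20.5. The same 4 loci led the S2p list in type II. The S2p fold was 157 at 52903281 to 52917662, 122 at 52673263 to 52682352, 100.3 at 52624300 to 52659771 and 66.9 at 52876437 to 52887450, all at or above the 99.6th percentile. The S2p region at 53345157 to 53349078 followed with 19.96. The widest regions of the window were the S5p region of 31.7 kb at 52623815 and the S2p region of 35.5 kb at 52624300.

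In the type I window a single locus reached this level. The S5p region at 39771721 to 39783248 on chromosome 17 had a fold of 119 (99.7th percentile), and the S2p region at 39771825 to 39781133 a fold of 89.3 (99.8th percentile). The other S5p regions among its 5 strongest were 39734978 to 39745073 (fold 29.3), 38974689 to 38976436 (26.9), 39666848 to 39680258 (21.8) and 38802400 to 38805173 (14.8). The corresponding S2p regions were 39734832 to 39743105 (22.6), 39666424 to 39677922 (21.9), 38972043 to 38974190 (14.7) and 38974843 to 38975656 (5.40). The widest Pol II regions here were 13.4 kb for S5p and 11.5 kb for S2p, at 39666848 and 39666424. Most members were far weaker than these: the median fold was 4.62 for S5p and 4.001 for S2p in type II, and 11.1 and 5.14 in type I, against 3.76 and 3.58 over the whole lists.

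Every keratin region of 53BP1 lay on Pol II S5p, and always on S5p regions high in their list, as was mostly so over the whole lists. All 29 regions of 53BP1 met S5p (100%, exact Clopper-Pearson 95% interval 88.1 to 100), against 97.6% of the whole 53BP1 list, so this share is close to the background. S2p was met by 27 of 29 (93.1%, 77.2 to 99.2), against 78.9% of the whole list. The 29 are not independent of each other, because they lay on only 10 S5p regions, and the intervals cover counting error alone. Of the 45 S5p regions, 10 held 53BP1 (22.2%, 11.2 to 37.1), against 15.2% over the list. Of the 25 S2p regions, 12 did (48.0%, 27.8 to 68.7), against 13.9%. In the upper 20% of the S2p list by fold it was 7 of 10 (interval 34.8 to 93.3), against 36.8%. This interval includes the 36.8%, so no difference is shown among S2p regions of high fold. With a −log10 q-value of at least 5 in all lists the share was 43.8%, against 20.1%, given here without an interval.

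All 10 of those S5p regions were in the top quintile of S5p fold, the upper 20% of that list. Over the whole list, 8933 of the 9507 S5p regions with 53BP1 were in it too, so this count is close to the background. In this quintile the type II window had 53BP1 on 6 of 8 S5p regions and the type I window on 4 of 9, together 10 of 17 (58.8%, 32.9 to 81.6), against 71.4% of the quintile as a whole. Below it, none of the 28 remaining keratin S5p regions held 53BP1, where 1.15% did over the whole list. In type II, S5p fold separated the regions completely: those with 53BP1 had S5p folds of 20.3 or more and those without had 18.5 or less. In type I they overlapped, since 53BP1 was present at an S5p fold of 14.8 and not detected at 29.3.

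S5p and S2p met less often in the type II window than in the lists as a whole when counted from S5p. An S2p region was met by 19 of 45 S5p regions of both windows (42.2%, 27.7 to 57.8), against 60.2%. In type II it was 11 of 30 (36.7%, 19.9 to 56.1). In type I it was 8 of 15 (53.3%, 26.6 to 78.7), an interval that includes the 60.2%. In the top quintile of S5p fold it was 12 of 17 (70.6%, 44.04 to 89.7), near the 76.5% of that quintile over the list. Counted from S2p the order was the reverse, with 20 of 25 regions on S5p (80.0%, 59.3 to 93.2), against 54.9%. Of the S5p regions without S2p, 19 were in type II and 7 in type I.

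Within type II, 53BP1 was crowded onto 4 Pol II regions. The 4 S5p regions above the 97th percentile covered 73.4 kb, 9.29% of the window, and held 21 of its 24 regions of 53BP1 and 89.4% of its 53BP1 bases. All 24 lay on S5p, which covered 109.8 kb of the window. These 4 regions thus made up most of its S5p bases, and much of the crowding follows from that. The matching share of 53BP1 over the whole list was not counted. The region of 31.7 kb at 52623815 to 52655548 alone held 10. Only 2 of the 62530 S5p regions held as many, and 8313 of the 9507 with any held 1.

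The 10 were uneven in strength. Near its lower end stood 52625712 to 52627856 (fold 16.9, 97.5th percentile), whose summit, the position of highest enrichment, was 10 bp from the S5p summit. Near its upper end stood 52645921 to 52653584 (16.3, 97.3rd percentile), which at 7664 bp was among the widest of the whole 53BP1 list. Between and around these lay weak regions with folds of 5.67 (52624314 to 52624621), 3.92 (52624910 to 52625199) and 3.47 (52632530 to 52632745). The others were 6.51 (52634945 to 52635498), 4.15 (52636893 to 52637246), 2.64 (52639690 to 52639929), 3.16 (52640162 to 52640462) and 4.07 (52643941 to 52644256). So 2 of the 10 were above the 97th percentile and 7 were below the list's median of 6.02.

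The second wide S5p region, 52671847 to 52682795, held 3. Unlike the others of type II, its strongest 53BP1 region was not the one at the S5p summit. That at 52674338 to 52679533, 5196 bp wide, had a fold of 21.2 (98.6th percentile) and a summit 349 bp from the S2p summit. The one at 52681306 to 52682250 had 10.8 and lay 57 bp from the S5p summit. A weak region at 52672550 to 52672918 had 3.47.

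The S5p region at 52876440 to 52891297 held 5, led by 52886698 to 52887485 with a fold of 20.5 (98.5th percentile), whose summit was 1 bp from the S5p summit. Next was 52879482 to 52880118 with 6.17, at 96 bp from the S2p summit. The remaining ones had 3.44 (52877705 to 52877985), 3.03 (52878542 to 52878764) and 4.83 (52889190 to 52889436). One region thus stood well above the others here.

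The strongest 53BP1 region of either cluster, 52913526 to 52914443, had a fold of 25.1 (99.1st percentile). It lay in the S5p region at 52903580 to 52919438, 35 bp from the S5p summit. The same S5p region held 52904862 to 52908124 (fold 7.17, 3263 bp wide), 324 bp from the S2p summit, and 52916417 to 52916644 (3.56). A wide and weaker region at the S2p summit thus accompanied a narrow and stronger one at the S5p summit.

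Outside these 4, type II had 53BP1 at its upper end alone. The S5p region at 53339542 to 53348993, the last before the end of the window set for KRT18, had an S5p fold of 20.3 (88.5th percentile). Its 53BP1 regions were 53342503 to 53344051 with a fold of 17.7 (97.8th percentile) and 53347518 to 53348574 with 4.91. The S5p region at 53296842 to 53299203 had a like S5p fold of 20.5, met no S2p region and held 1 of 53BP1, 53298565 to 53298990, with 9.77 (84.6th percentile).

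In type I every 53BP1 region was weak. The folds were 6.33 (38974993 to 38975582), 5.25 (38803773 to 38804185), 4.79 (39674979 to 39675219), 4.76 (39780334 to 39780881) and 3.92 (39678171 to 39678411). Only the first exceeded the list's median of 6.02, at the 54.6th percentile, and the lowest lay at the 12.8th. Widths ran from 241 to 590 bp. In type II, 8 of 24 were in the top quintile of the list, although 13 of 24 were below its median, so the clusters overlapped at the low end and differed at the high end.

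Since 53BP1 fold follows S5p fold over the lists, each keratin S5p region of the top quintile was set beside the S5p regions of like fold, in 50 equal bins of the list. In type II the 3 such regions below the highest bin had highest 53BP1 folds in the upper part of theirs. A highest fold can be larger where more 53BP1 regions are held, and their number was not matched. At 52876440 there were 5, and 11 of the 1251 regions of its bin held at least as many. At 53339542 there were 2, and 69 of 1251 held at least as many. For the S5p region at 53339542, 17.7 exceeded 99.5% of the bin's regions with 53BP1, whose median was 5.62. For that at 52876440, 20.5 exceeded 98.9%, with a median of 8.19. At 53296842 the share was 95.2%. With bins by −log10 q-value instead, the shares were 99.3% at 53339542, 87.5% at 52876440 and 94.7% at 53296842. By q-value the region at 52876440 fell in the highest bin, whose median was 11.6. The highest bin by fold spans a wide range of S5p fold. So its members were also set beside the 159 S5p regions with a fold of at least 119, that of the strongest type I region. All 159 held 53BP1, with a median highest fold of 22.4 (quartiles 16.03 and 30.4). The 3 strongest type II regions were ordinary among these: 16.9 and 21.2 were below the median, 25.1 was above it, and all 3 lay between the quartiles.

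In type I the 53BP1 values lay in the middle or low part of the bins. The highest 53BP1 fold exceeded 54.5% of the bin at 38802400, 52.9% at 38974689 and 31.0% at 39666848. In bins by −log10 q-value these shares were 42.5%, 68.5% and 31.3%. At the strongest type I locus, 39771721 to 39783248, a 53BP1 fold of 4.76 exceeded 2.72% of its bin. Among the same 159 regions, 1 other had a lower 53BP1 fold. This locus thus had Pol II near the top of both lists and 53BP1 below the median of its list, a comparison chosen after the values were seen.

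S5p regions of the top quintile without 53BP1 were also set beside their bins. At 39734978 to 39745073 in type I, with an S5p fold of 29.3, no 53BP1 region was called, whereas 93.8% of its bin held one. At 52838697 to 52846343 in type II, with an S5p fold of 18.5 and an S2p fold of 14.9, none was called, against 63.6% of the bin. Binned by −log10 q-value, the share with 53BP1 was 95.4% for the bin of 39734978 and 90.4% for that of 52838697. The other regions were weaker, at 52576627 in type II and at 38972119, 39559656, 39685723 and 39703564 in type I. In their bins by fold, 17.9 to 45.8% of regions held 53BP1. No 53BP1 region means that none was detected, and a lower level just under the caller's limit cannot be told apart from none.

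**Figure D3:**
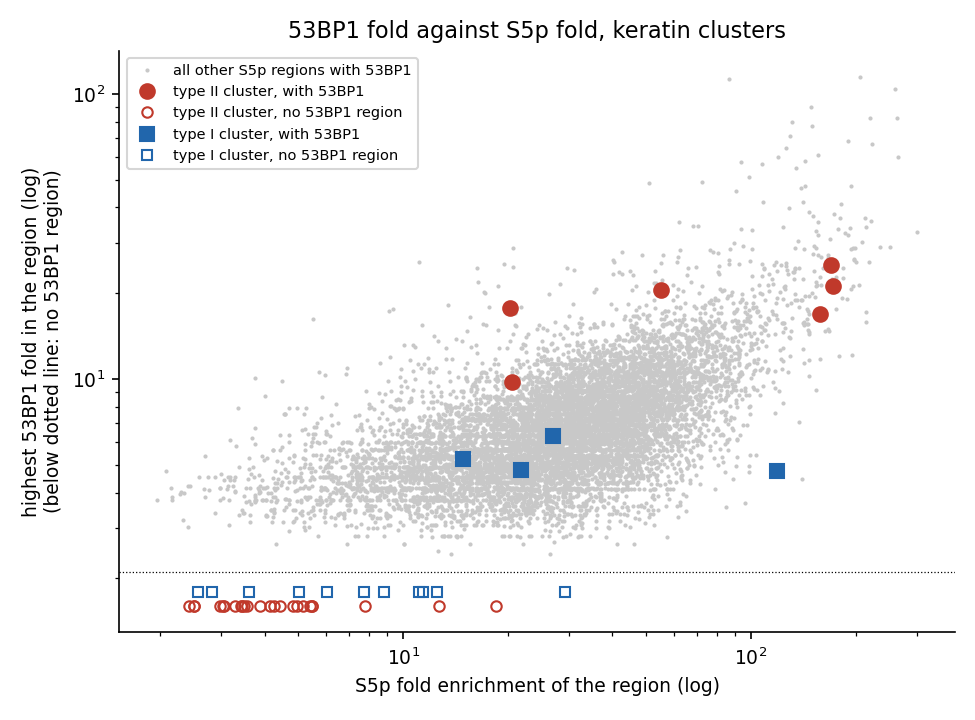
Highest 53BP1 fold in each S5p region (y axis, log) against the region's S5p fold (x axis, log) for the whole S5p list (grey) and the keratin clusters (filled symbols); open symbols below the dotted line are keratin S5p regions with no 53BP1 region, placed at an arbitrary height. The type II points with S5p folds of 20.3 to 55.0 lie on the upper side of the grey cloud and the 3 with 158 or more lie within it, while the type I point with an S5p fold of 119 lies at its lower edge with a 53BP1 fold of 4.76.

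Summit positions were then compared within the wide regions. All 9 keratin S5p regions of 5 kb or more met S2p, and in each the S5p summit and the summit of the strongest S2p region were at least 2 kb apart. The distances were 21.7, 3.25, 6.33, 7.001, 6.40 and 4.46 kb in type II and 5.90, 5.57 and 5.61 kb in type I, in order of position. The S2p summit lay at the lower position in all 3 type I regions and in 4 of the 6 of type II, and at the higher position at 52623815 and 53339542. Over the whole list it was at the lower position in 1285 of 2612 regions of the same width and spacing.

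In 7 of the 9, a 53BP1 summit lay 1 to 81 bp from that of S5p. A 53BP1 summit within 500 bp of it was present in 55.9% of the 2612, and in 98.5% of the 469 of them in the highest of 50 bins of S5p fold, so the keratin count is not apart from the list. Both Pol II summits had one within 500 bp in 4 of the 9 (44.4%, 13.7 to 78.8), against 12.8% of the 2612. At a limit of 250 bp the count was 1 of 9, against 8.12%, and at 1000 bp it was 4 of 9, against 16.7%. The contrast is thus lost at the tightest limit, and all 3 limits were set after the values were seen. Among the 469 of the highest bin the share was 33.0%, and among the 635 with at least 2 regions of 53BP1 it was 47.4%, beside 4 of 6 in the clusters. The last 2 background shares lie within the interval of the 4 of 9.

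The 4 were all in type II: 52671847, 52876440, 52903580 and 53339542. At 52623815 the nearest 53BP1 summit was 1664 bp from the S2p summit at 52648796, but the 53BP1 region itself, 52645921 to 52653584, included that position. In type I, 53BP1 was 78 bp from the S5p summit at 39666848 and 81 bp at 39771721, and none was nearer than 5688 bp to the S2p summit in any of the 3 regions. In 3 of the 4, the 53BP1 region at the S5p summit had the higher fold: 25.1 against 7.17, 20.5 against 6.17 and 17.7 against 4.91. At 52671847 the order was the reverse, 10.8 against 21.2.

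**Figure D4:**
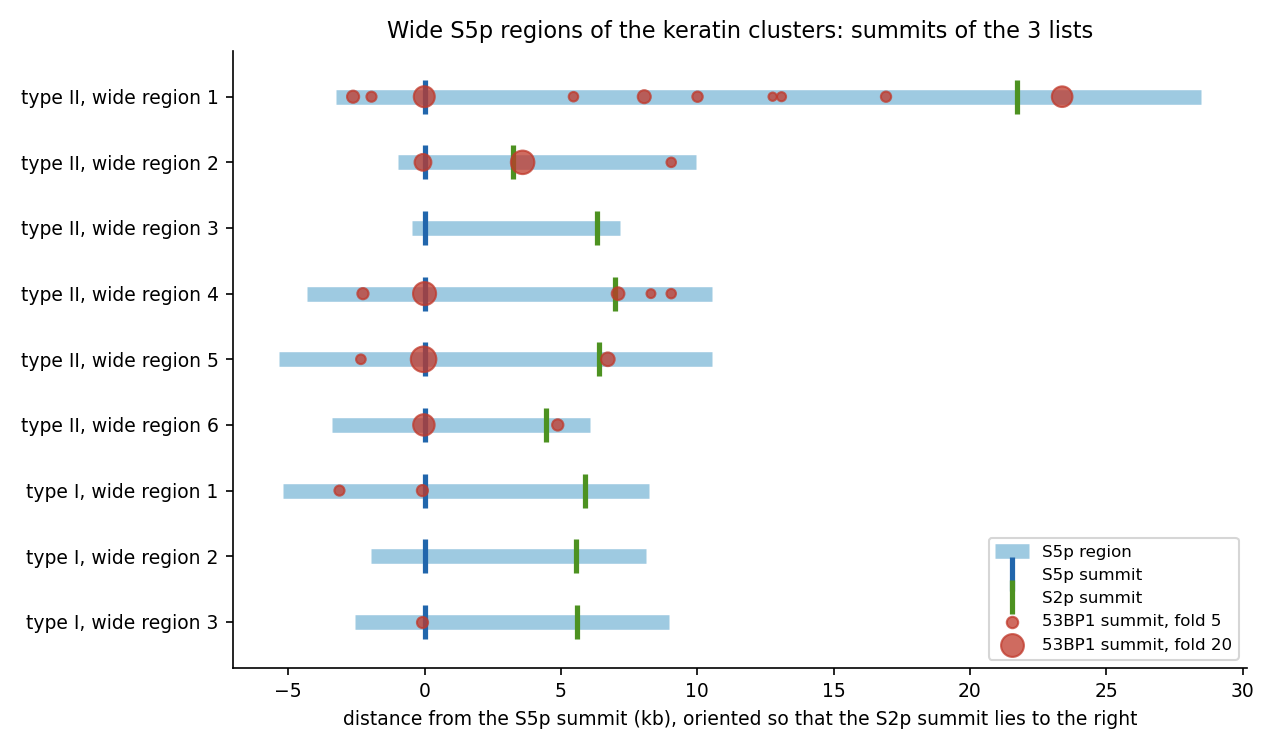
The 9 S5p regions of 5 kb or more in the keratin clusters, in order of position (rows; light bar, the S5p region), aligned on the S5p summit and turned so that the S2p summit lies to the right (x axis, kb); red circles are 53BP1 summits, with area in proportion to fold. In type II, large circles sit on the S5p summit and others near the S2p summit in most rows; in type I, circles are small and none sits at the S2p summit.

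Many type II regions of 53BP1 shared a wide Pol II region, and their distances to Pol II summits were long. Whether the sharing accounts for the distances was not tested. The median distance to the S5p summit was 5174 bp for the 24 in type II and 81.0 bp for the 5 in type I, against 78.0 bp over the 11250 summits of the list that lay in an S5p region. Within 500 bp of the S5p summit were 6 of 24 in type II (25%) and 4 of 5 in type I, against 79.6% of the list.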

How the data were processed

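Regions of 53BP1, Pol II S5p and Pol II S2p were taken as deposited, 1 list per ChIP and 1 library per list. Per the submitters' processing notes, the build is hg19, and bcl2fastq 2.20.0.422 made the reads. Not given in the sources used here are the aligner, the peak caller, its control and the handling of reads that match several places. Near-identical keratin genes exist, so the last could affect these values. The authors deposited for each region a fold enrichment (a ratio over background), −log10 p-values and −log10 q-values, a score (the −log10 q-value times 10) and a summit offset. Whether reads were pooled is not stated.

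Rows outside chromosomes 1 to 22 and X (1, 2 and 1) were dropped. Positions are 1-based. Overlap meant 1 bp or more. Shares have exact Clopper-Pearson 95% intervals. No test was made, since there is 1 library per ChIP. Bins and quintiles were made over the whole list. Named were all 53BP1 regions, the 5 strongest and the widest of each Pol II list per window, and the 2 longest stretches without regions. The windows and lists were chosen with earlier results of these data known, and the summit pairing and the 50 bins after the values were seen. Overlap, gap and summit functions were tested on simulated data. No hg19 sequence or annotation was used. Software was Python 3.11.15 with scipy 1.17.1, pandas 2.3.3, numpy 2.4.6 and, for plots, matplotlib 3.10.9.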

Additional observations from a re-analysis of the deposited data

How the results depend on the processing

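Of 59 alternative values, 42 were counted as unchanged, meaning within their interval or within 1.5 times the reported count. The 42 include the strongest type I locus with bins by −log10 q-value, to which neither limit was applied (1.28% of its bin, against 2.72% by fold). Region counts fell where weak regions were left out, by construction. At a −log10 q-value limit of 5, the type II window kept 13 and type I 3 of 53BP1, and S2p regions in type II numbered 9. With the upper 50% of each list by fold, type II kept 11 of 53BP1, 19 of S5p and 8 of S2p, and type I 1 of 53BP1 and 6 of S2p. Joining regions within 1 kb gave 27 loci in type II, and within 20 kb 7 in type II and 6 in type I. With windows of 250 bp on each side of summits, 53BP1 met S5p in 34.5% (whole list 77.6%) and S2p in 27.6% (52.0%), and S5p met S2p in 15.6% (28.4%). With 50% of the region covered, 2.22% of S5p (1.5%) and 16% of S2p regions (5.50%) held 53BP1. A 53BP1 summit within 250 bp of both Pol II summits was found in 1 of 9 wide regions (8.12% of the list), and within 1000 bp in 4 (16.7%). At the q-value limit, the S2p share of 53BP1 was 81.2%, near the list's 79.5%. With bins by −log10 q-value, the strongest type I locus exceeded 1.28% of its bin. The summit distances, the bins by q-value and the longest gaps at the q-value limit (583 and 294 kb) were alternatives chosen after seeing the data. Unknown depth limits any region not called. No paired analysis was possible because there is a single library for each antibody. Names of genes under the regions were not given for lack of an hg19 annotation.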

Other observations

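Of the 25 S2p regions of the clusters, 5 met no S5p region, against 24598 of 54600 over the whole list. None of the 5 held 53BP1, but over the whole 53BP1 list only 283 of 11604 regions lay off S5p. The share with 53BP1 among all S2p regions off S5p was not counted, so nothing particular to the clusters is shown. On chromosome 17, 2 of the 5 S2p regions formed a locus of S2p alone, just below the stretch of 541 kb without regions. They were 38992672 to 38993172 (fold 3.38) and 38993563 to 38995946 (fold 2.82). The others, all on chromosome 12, were 52670826 to 52671383 (fold 2.68), 52874888 to 52875342 (4.001) and 53335835 to 53336593 (2.29), each within 5 kb of Pol II regions that met S5p. None reached the top quintile of the S2p list.

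Within a single locus at chromosome 17, 38972043 to 38976436, 2 neighbouring S5p regions differed in 53BP1. The S5p regions at 38972119 to 38974226 and 38974689 to 38976436 had folds of 12.5 and 26.9, and the S2p regions there 14.7 and 5.40, so S2p was stronger where S5p was weaker. The single 53BP1 region, with a fold of 6.33, lay on the second, 20 bp from its S5p summit. In the bins of like S5p fold, 45.8% of regions held 53BP1 for the first S5p region and 88.8% for the second.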
